A study of Homo sapiens with 16 samples.

Results

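The genes described here encode the constitutive subunits of the proteasome, its activators and its dedicated assembly factors. They were taken by symbol, as every gene named PSMA, PSMB, PSMC, PSMD, PSME, PSMF or PSMG followed only by a number, without the inducible immunoproteasome subunits PSMB8, PSMB9 and PSMB10. This gave 45 of the 62700 genes in the deposited table, namely 8 genes of the alpha ring and 8 of the beta ring of the core particle, 6 ATPases and 3 other subunits of the base, 8 subunits of the lid, 7 assembly factors, and 5 activators and inhibitors. RNA-seq was performed in OCI-AML3, an established human acute myeloid leukemia (AML) cell line, in 16 libraries. Of these, 4 were from untreated cells and 3 each from cells given ATRA, Am80, ATRA with both GSK-LSD1 and MB3, or Am80 with both GSK-LSD1 and MB3, all for 3 h. The retinoids and GSK-LSD1 were used at 0.1 µM each, and MB3 was used at 100 µM. ATRA, all-trans retinoic acid, activates all retinoic acid receptors, Am80 (tamibarotene) is a synthetic RARA agonist, GSK-LSD1 inhibits the histone demethylase LSD1, and MB3 inhibits the histone acetyltransferase GCN5. The comparisons ask what each retinoid does alone, what both inhibitors add to it, and whether Am80 and ATRA differ. No library held the inhibitors without a retinoid, and both inhibitors were always given together, so neither can be told apart from the other. All libraries came from 1 cell line, and nothing in the labels says that replicates were separate cultures, so p-values measure only the spread between these libraries.

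The proteasome degrades proteins that carry ubiquitin chains. Its core particle is a barrel of stacked rings in which beta subunits cut the substrate and alpha subunits gate the entrance. The regulatory particle caps the barrel, where the base unfolds substrates with a ring of ATPases and the lid removes the ubiquitin chain. Dedicated chaperones build the rings and leave the finished complex. When proteasome function is short, the membrane-bound transcription factor encoded by NFE2L1 is released by the protease DDI2 and the glycanase NGLY1, and raises most subunit genes together through antioxidant response elements.

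Between 11963898 and 33789718 reads per library were counted. Values are normalized counts, meaning reads divided by the DESeq2 size factor of the library. A gene was tested if its mean was at least 10 normalized counts, which left 14643 genes, and was called if its adjusted p was under 0.05 (limma, Benjamini-Hochberg). The blood cell marker PTPRC and the myeloid genes CD33, SPI1, CEBPA and LYZ were expressed in every library, whereas MPO was low (23.9 to 53.2 normalized counts). Of the markers of other cell types, CD3E, EPCAM and COL1A1 had at most 4 reads. Untreated replicate 4 stood apart. Its median proteasome gene was 0.23 above the untreated mean on the log2 scale, against -0.11 to -0.04 in the other untreated libraries. The proteasome genes together made up 0.561% of its normalized counts, against 0.449% to 0.506% in the other 15 libraries. Counts of calls, and the values most moved by this library, are therefore also given without it.

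Of the 45 genes, 43 passed the filter in the fit. PSMA8, a testis form of an alpha subunit, had no read in any library, which allows at most 3 reads per library. PSMB11, a thymus form of the catalytic subunit PSMB5, reached at most 1.40 normalized counts. Both are known from other tissues and were not tested. All others were detected in all 16 libraries, and gene lengths come from the GENCODE 29 annotation of GRCh38 because the annotation used for counting was not given in the sources used here.

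In untreated cells, the proteasome genes were abundantly expressed. Per kb of annotated exon, the median level over the 43 genes was 525 normalized counts, compared with 79.96 over 14293 tested genes of known length, and 40 of the 43 genes lay above that median. PSMA7, an alpha subunit, had the highest level per kb (2370 ± 516 normalized counts, SD, n = 4), followed by the beta subunit PSMB4 (2073 ± 405). Their ranges overlapped, so their order was not resolved. The ATPase PSMC3 (1390 ± 229) came next and lay below both without overlap. The order also depends on the length used. Per kb of the longest coding transcript, PSMB4 (4640) stood above PSMA7 (4163), and the lid gene PSMD6 moved from rank 36 to 17. The catalytic subunits of the core overlapped each other in their ranges. PSMB7, the trypsin-like subunit, had 1081 ± 209 normalized counts per kb, PSMB5, the chymotrypsin-like subunit, had 801 ± 154, and PSMB6, the caspase-like subunit, had 724 ± 151. Over the whole order, 35 of 42 neighbouring pairs overlapped in their range. Assembly factors had a median of 295 per kb, compared with 367 for the alpha ring, 801 for the beta ring and 457 for the lid. They spread widely, with PSMG4 at 32.7 ± 4.79 and PSMD10 and PSMG1 above the median of the alpha ring.

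**Figure D1:**
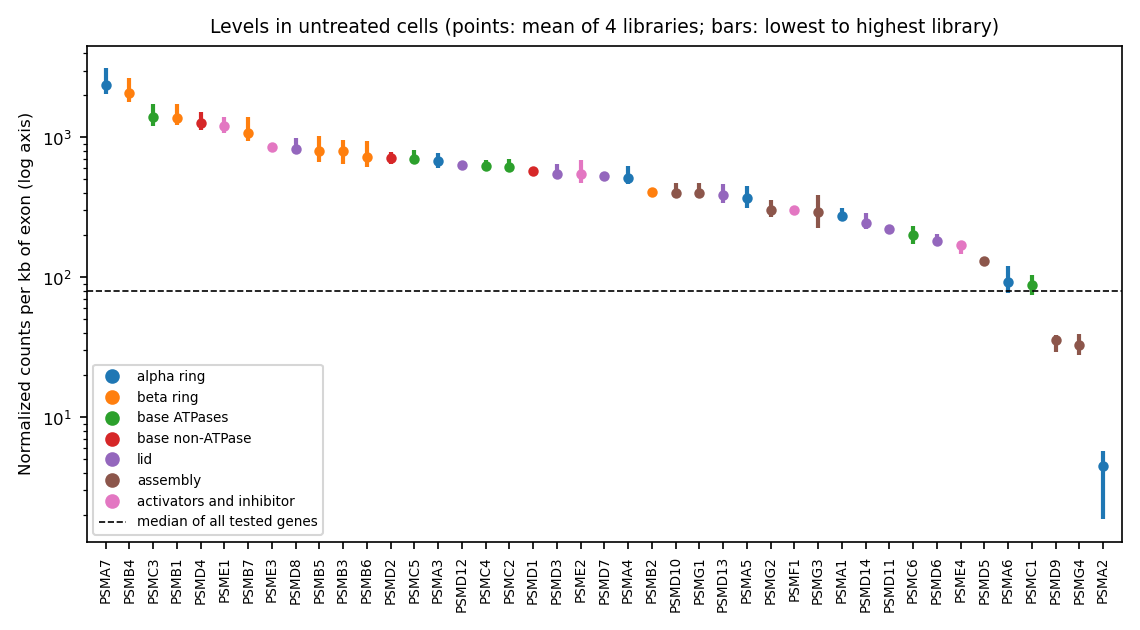
Level of each of the 43 tested proteasome genes in untreated cells, in normalized counts per kb of exon on a log axis, ordered by the mean of 4 libraries and coloured by role, with bars from the lowest to the highest library. PSMA7 is highest at 2370, PSMA2 is lowest at 4.46, and the dashed line marks the median of all tested genes at 79.96.

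PSMA2, an alpha subunit that every core particle holds, was the lowest gene with 4.46 ± 1.79 normalized counts per kb. Its normalized counts were 30.7, 29.6, 24.9 and 9.97 in the untreated libraries, and the low value was replicate 4. In the annotation, 52.5% of its longest coding transcript lies in exons of another gene on the same strand, as does 52.5% of that of PSMA1 and 81.0% of that of PSMA6. The other genes averaged 0.467, 0.854 and 0.828 normalized counts, respectively. How reads in shared exons were assigned is not given in the sources used here, and their part in these levels was not tested. PSMC1 shares 82.1% of its longest coding transcript with NRDE2, and PSMD7 shares 50.4% with an unnamed gene, both on the other strand. The strand setting of the counting was not given in the sources used here. The levels of these 5 genes are therefore uncertain, and with them any comparison of their levels with other subunits.

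The retinoids alone moved proteasome genes little. With ATRA, 3 of 43 genes (6.98%) differed from untreated cells, all lower, while 24.6% of all tested genes were called in either direction (12.1% lower). With Am80, 5 of 43 genes (11.6%) were called, 4 higher and 1 lower, against 28.8% of all tested genes (15.4% higher and 13.4% lower). The median log2 fold change was -0.07 with ATRA and 0.03 with Am80, and 0.02 and 0.10 without untreated replicate 4. For 42 of 43 genes with ATRA and 39 of 43 with Am80, the 95% confidence interval lay within a 1.5-fold change in either direction (42 and 40 without that library). In bulk RNA, fewer cells that express a gene and less RNA per cell cannot be told apart.

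**Figure D2:**
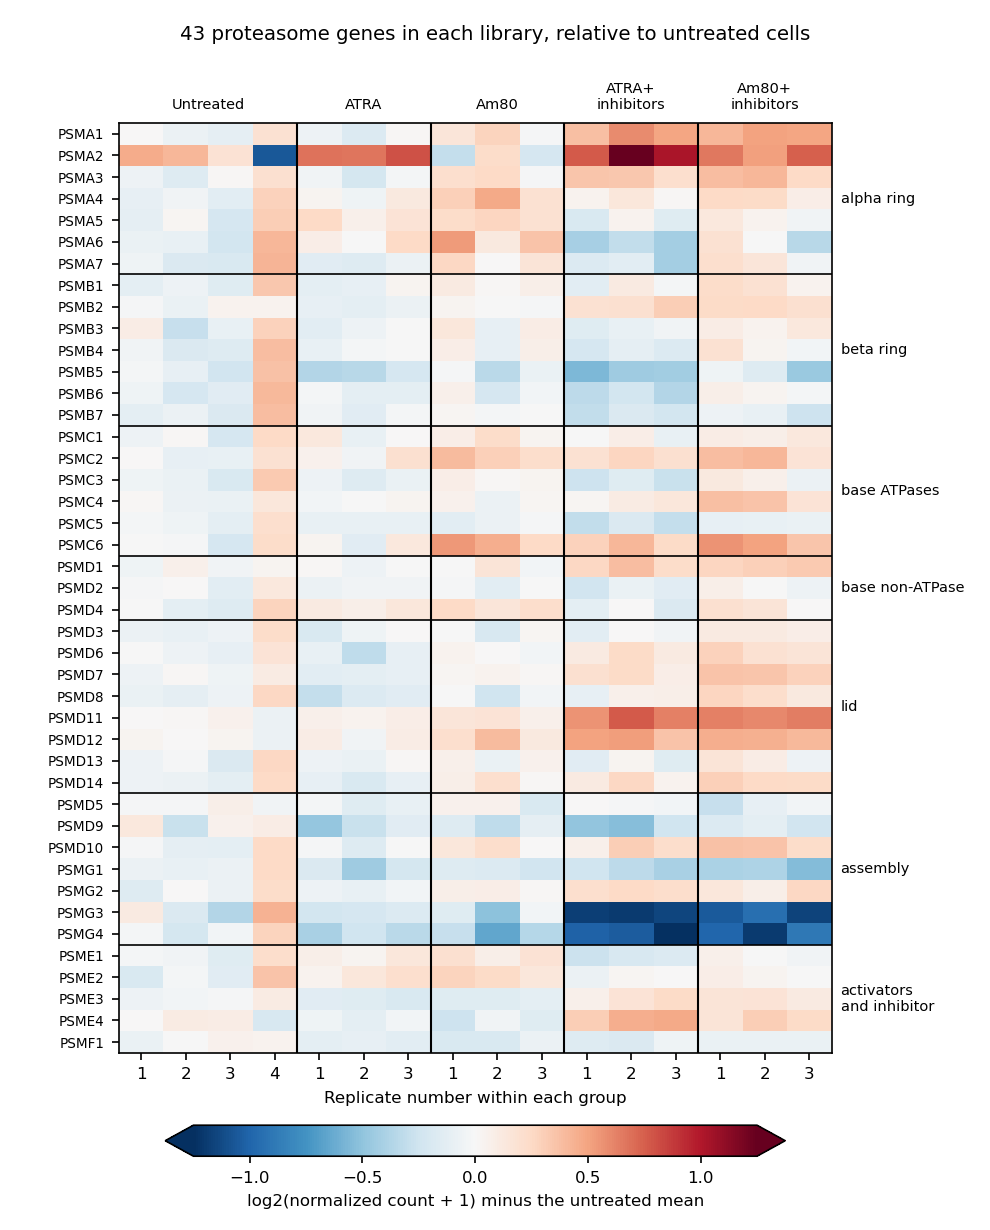
Log2(normalized count + 1) of each tested proteasome gene in each of the 16 libraries, minus the mean of the untreated libraries, with genes grouped by role (rows) and libraries by treatment (columns). Untreated replicate 4 is red in most rows, and PSMG3 and PSMG4 are blue and PSMD11 and PSMD12 red in all 6 libraries with inhibitors.

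The genes called with ATRA were the assembly factors PSMG1 (log2 fold change -0.28, adjusted p = 0.0209) and PSMD9 (-0.30, adjusted p = 0.0493) and the nuclear activator PSME3 (-0.16, adjusted p = 0.0486). None of these calls stood without untreated replicate 4. In that fit, PSMA5, PSMD4 and PSME2 were called instead, all 3 higher, while 12.3% of all tested genes were higher and 11.9% lower. The median over the proteasome genes was 0.02. The direction of the small ATRA effect thus depended on 1 control library. PSMD9, a chaperone of the base, was measured at 339, 256, 323 and 330 normalized counts in untreated cells and at 221, 255 and 282 with ATRA. The groups overlapped, and the difference was -0.27 without replicate 4 (adjusted p = 0.0886).

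With Am80, the ATPases PSMC6 and PSMC2, the alpha subunit PSMA4 and the lid subunit PSMD12 were higher, and PSMG4 was lower. PSMC6 had 1488, 1484, 1295 and 1751 normalized counts in untreated cells and 2180, 2054 and 1781 with Am80 (log2 fold change 0.42 ± 0.094 SE, adjusted p = 0.0019). All Am80 libraries lay above all untreated libraries. PSMG4, which builds the alpha ring, had 332, 291, 330 and 410 normalized counts in untreated cells and 278, 215 and 264 with Am80 (-0.43 ± 0.12, adjusted p = 0.00977). All Am80 libraries lay below the untreated ones, and with ATRA the change was -0.33 (adjusted p = 0.0516). All 5 calls stood without untreated replicate 4, when 12 further genes were called, giving 15 higher and 2 lower. Over all tested genes, that fit called 17.5% higher and 15.3% lower. The Am80 count thus rested on that library as well. PSMA2 had a log2 fold change of 0.72 with ATRA (adjusted p = 0.0671) and -0.09 with Am80 (adjusted p = 0.846), from the low counts given above.

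Adding both inhibitors changed more proteasome genes, in both directions. Beside ATRA, 19 of 43 genes (44.2%) were called, 14 higher and 5 lower, while 49.3% of all tested genes were called (24.9% higher and 24.4% lower). Beside Am80, 15 of 43 (34.9%) were called, 11 higher and 4 lower, while 39.5% of all genes were called (19.9% higher and 19.5% lower). With all libraries, the share of proteasome genes called was thus no larger than in the whole table. Untreated replicate 4 enters these comparisons only through the shared variance. Without it, the split beside ATRA was 15 up and 9 down (27.2% and 26.9% of all tested genes). That beside Am80 was 16 up and 7 down (22.7% and 22.4%). The changes were also small. The median absolute log2 fold change was 0.22 beside ATRA and 0.17 beside Am80, compared with 0.31 and 0.26 over all tested genes, and 3 genes passed a 1.5-fold change in each comparison, whatever their p. Beside ATRA these were PSMG3, PSMG4 and PSMD11, and beside Am80 they were PSMG3, PSMG4 and PSMA2. The median fold change over the proteasome genes was near 0, at 0.02 and 0.05 on the log2 scale. Against each retinoid, the genes called higher with both were PSMA1, PSMB2, PSMD1, PSMD6, PSMD7, PSMD11, PSMD12, PSME3 and PSME4, and those called lower with both were PSMA6, PSMG3 and PSMG4. No gene was called in opposite directions. With all libraries, a further 7 genes were called only beside ATRA and 3 only beside Am80, and 21 beside neither. These lists changed without untreated replicate 4. No gene passed the test of the difference between the retinoids, described with the direct comparison of both.

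**Figure D3:**
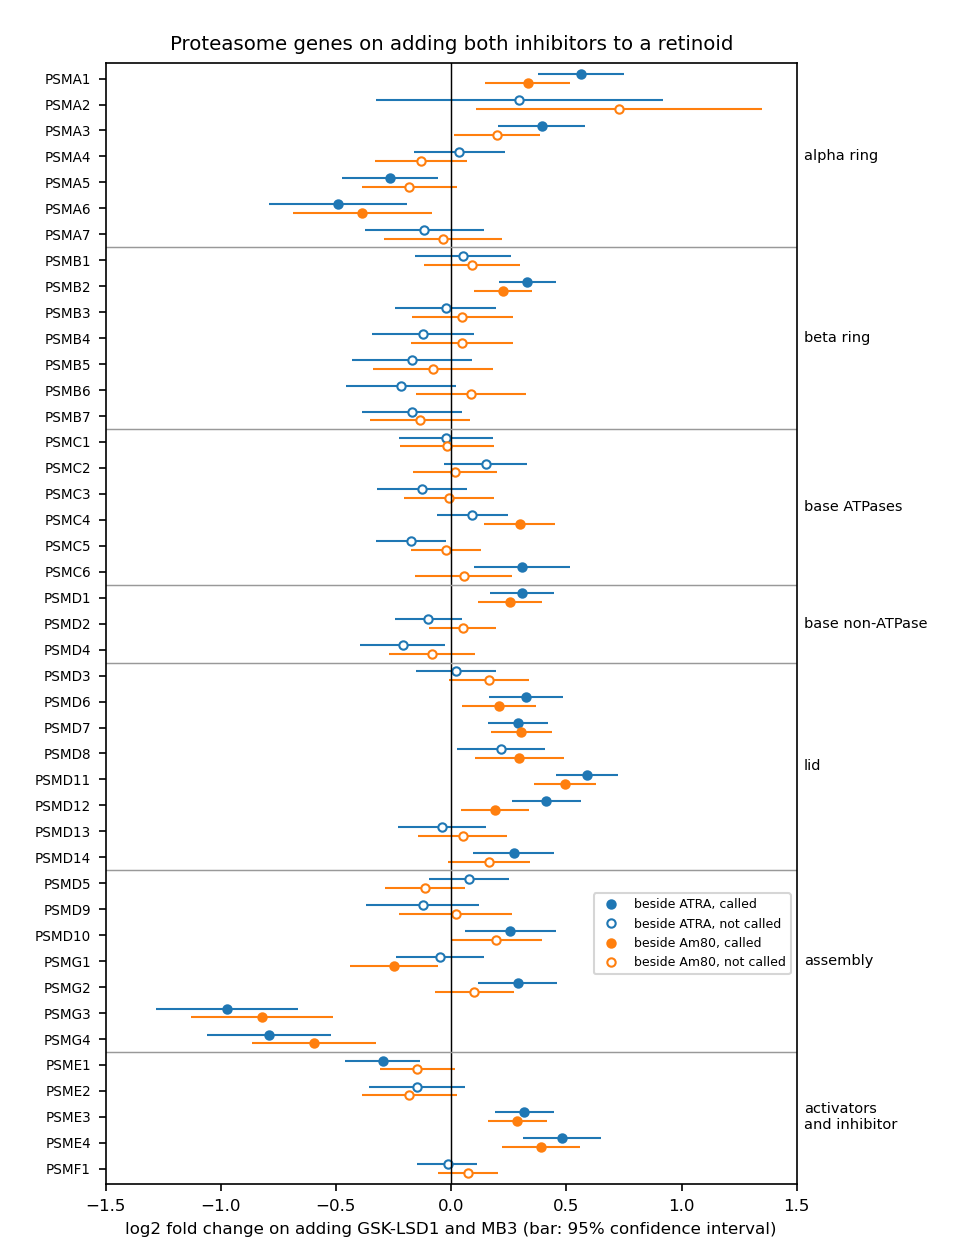
Log2 fold change of the 43 tested proteasome genes on adding GSK-LSD1 and MB3 to ATRA (blue) or Am80 (orange), with 95% confidence intervals, grouped by role, where filled points have an adjusted p under 0.05 (limma). PSMG3 (-0.97 and -0.82) and PSMG4 (-0.79 and -0.60) lie farthest to the left and, among filled points, PSMD11 (0.59 and 0.49) farthest to the right.

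The size of these changes depends on the scaling. The normalized counts assume that the typical gene did not change. When libraries were scaled to their total reads, the median of all genes shifted by -0.16 beside ATRA and -0.13 beside Am80 on the log2 scale, and the split of called proteasome genes became 9 higher and 15 lower, and 6 higher and 11 lower. Quantile normalization gave 9 higher and 12 lower, and 6 higher and 9 lower. The median proteasome gene was then at -0.075 beside ATRA and -0.031 beside Am80, against -0.003 and -0.015 over all genes. Under total reads it was at -0.126 and -0.073. The shares of all tested genes called under both scalings are not given here, so the splits are no result about proteasome genes. Every gene called higher or lower with the deposited scaling kept its sign under both total reads and quantile normalization. Beside ATRA, PSMC6, PSMD10, PSMD14 and PSMG2 lost their higher call under both. PSMD1 lost it only under quantile normalization, and PSMD7 only under total reads. Beside Am80, PSMB2, PSMD1, PSMD6, PSMD8 and PSMD12 lost it under both, and PSME3 only under quantile normalization. When a trend on GC content was removed from each library, 8 of the 14 higher and all 5 lower calls beside ATRA stood, as did 9 of the 11 higher and all 4 lower calls beside Am80. PSMA3, PSMB2, PSMC6, PSMD10, PSMD12 and PSMD14 lost their call beside ATRA, with values between -0.04 and 0.14, and PSMD6 and PSMD12 lost theirs beside Am80. PSMC6 also changed sign beside ATRA, and PSMC2 and PSMC6 changed sign for the ATRA combination against untreated cells. Changes are given below under the deposited scaling, unless stated.

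The lid was the group with the most calls in 1 direction. Of its 8 genes, 5 were higher beside each retinoid and 0 were lower, with median log2 fold changes of 0.28 and 0.20. Over all tested genes, 24.9% and 19.9% were higher. Of the 5 beside Am80, PSMD7 and PSMD11 kept their call under quantile normalization and under total reads, while PSMD6, PSMD8 and PSMD12 did not. Of the 5 beside ATRA, PSMD6, PSMD7 and PSMD11 kept it with the GC trend removed. PSMD11 (ENSG00000108671.11, GRCh38 chr17:32444261-32483318, plus strand) encodes a subunit that clamps the lid to the core. It had 1660, 1636 and 1679 normalized counts with ATRA and 2348, 2707 and 2451 after both inhibitors were added (0.59 ± 0.064 SE, adjusted p = 3.86e-07). With Am80 it had 1763, 1785 and 1659 normalized counts, and 2453, 2401 and 2473 with the inhibitors (0.49 ± 0.064, adjusted p = 4.09e-06). The groups did not overlap in either case, and PSMD11 was called in every alternative fit without a fold limit. PSMD12, its neighbour in the lid scaffold, had 3608, 3273 and 3601 normalized counts with ATRA and 4796, 4842 and 4326 with the inhibitors (0.41 ± 0.071, adjusted p = 8.78e-05). With the GC trend removed it was at 0.08 and not called. Beside Am80 PSMD12 was at 0.19 ± 0.071 (adjusted p = 0.0395), and at 0.02, 0.07 and 0.07 under quantile normalization, total reads and the GC trend, where it was not called. PSMD7, a partner of the deubiquitinase, rose by 0.29 beside ATRA (adjusted p = 0.000832) and by 0.31 beside Am80 (adjusted p = 0.000685). PSMD6 rose by 0.32 and 0.21 (adjusted p = 0.00172 and 0.0364). The deubiquitinase PSMD14 was called only beside ATRA (0.27, adjusted p = 0.0125, compared with 0.17 and adjusted p = 0.131 beside Am80), and PSMD8 only beside Am80 (0.30, adjusted p = 0.0142, compared with 0.22 and adjusted p = 0.0556). PSMD3 and PSMD13 were not called. Without untreated replicate 4, PSMD3 and PSMD14 were also called higher beside Am80, and PSMD8 beside ATRA.

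Assembly factors moved apart. PSMG3 and PSMG4 form a heterodimer that helps to build the alpha ring, and both fell. PSMG3 (ENSG00000157778.9) lies at GRCh38 chr7:1567330-1571005 on the minus strand and PSMG4 (ENSG00000180822.12) at chr6:3231403-3303373 on the plus strand. PSMG3 had 483, 489 and 502 normalized counts with ATRA and 249, 246 and 255 after the inhibitors were added (-0.97 ± 0.15 SE, adjusted p = 2.06e-05), or 0.509 of its level. With Am80 it had 511, 396 and 553 normalized counts, and 273, 293 and 252 with the inhibitors (-0.82 ± 0.15, adjusted p = 0.000159). No library with inhibitors reached the level of any library without them. PSMG4 had 256, 285 and 268 normalized counts with ATRA and 167, 164 and 136 with the inhibitors (-0.79 ± 0.13, adjusted p = 4.61e-05). With Am80 it had 278, 215 and 264 normalized counts, and 170, 147 and 182 with the inhibitors (-0.60 ± 0.13, adjusted p = 0.000969). These groups did not overlap either. PSMG1 and PSMG2 form the other heterodimer of the alpha ring. PSMG2 rose by 0.29 beside ATRA (adjusted p = 0.00672) and was at 0.10 beside Am80 (adjusted p = 0.359), whereas its partner PSMG1 was at -0.05 (adjusted p = 0.684) and fell by 0.25 beside Am80 (adjusted p = 0.0367). PSMD10, a chaperone of the base also known as gankyrin, rose by 0.26 beside ATRA (adjusted p = 0.0293) and was at 0.20 beside Am80 (adjusted p = 0.106). The rise of PSMD10 beside ATRA was not called under quantile normalization (0.17), total reads (0.11) or the GC trend (0.006). That of PSMG2 was not called under quantile normalization (0.195) or total reads (0.142). Without untreated replicate 4, PSMD10 was also called higher beside Am80. The base chaperones PSMD5 and PSMD9 were not called.

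Within a library, the ratio of 2 genes does not depend on a scaling by 1 factor per library. It can change under quantile normalization or a GC trend, and the ratios below are of the deposited values. With the GC trend removed, PSMG3 was at -0.701 beside ATRA and -0.745 beside Am80. PSMG4 was then at -0.697 and -0.551, and all these falls were still called. The ratio of PSMG4 to PSMG2, chosen after the values were seen, was -1.58 ± 0.15 (log2, SD, n = 4) in untreated cells, -1.85 ± 0.098 with ATRA and -2.07 ± 0.21 with Am80. With the inhibitors it was -2.93 ± 0.16 beside ATRA and -2.77 ± 0.077 beside Am80, and the highest library with inhibitors (-2.71) lay below the lowest without (-2.32). The ratio of PSMG3 to PSMG1 was between -1.16 and -0.58 in the 10 libraries without inhibitors and between -1.75 and -1.38 in the 6 with them.

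**Figure D4:**
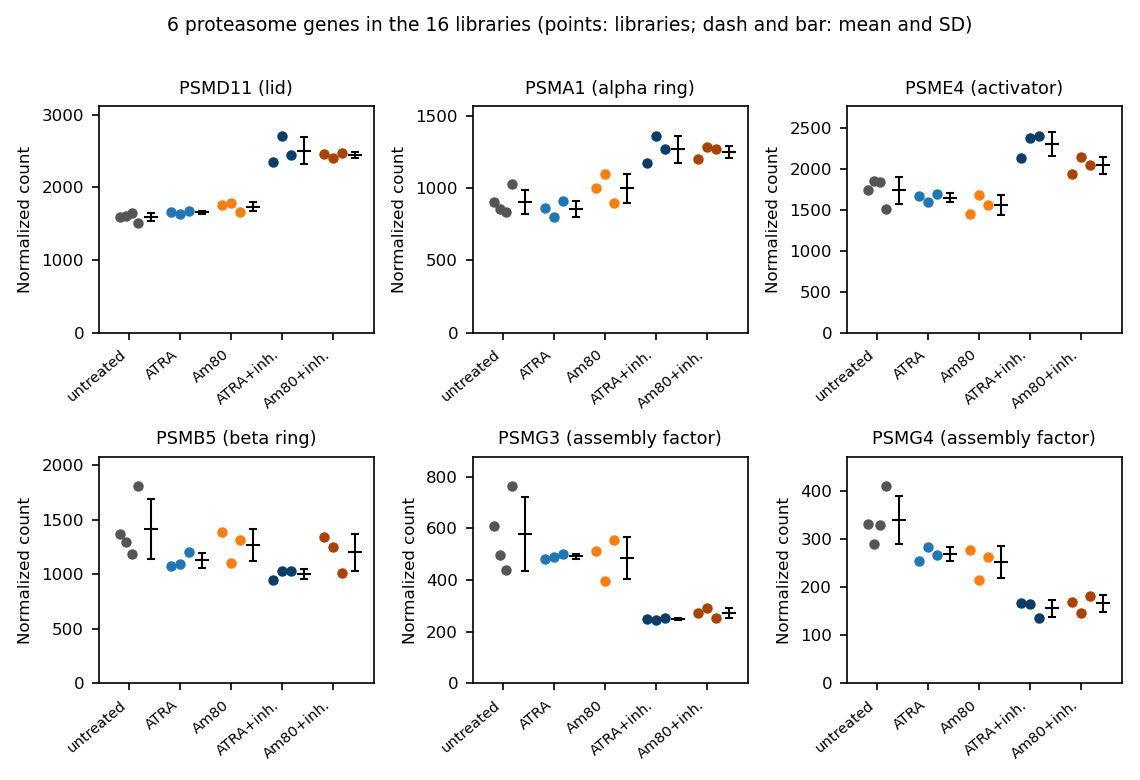
Normalized counts of PSMD11, PSMA1, PSME4, PSMB5, PSMG3 and PSMG4 in every library of the 5 groups (points), with the mean and SD of each group beside them and each axis starting at 0. PSMD11 lies between 1507 and 1785 without inhibitors and between 2348 and 2707 with them, whereas PSMG3 lies between 396 and 762 without and between 246 and 293 with them.

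In the core particle, most genes did not pass the test. Of the 14 tested alpha and beta genes, 3 rose and 2 fell beside ATRA (24.9% and 24.4% of all tested genes). Beside Am80, 2 rose and 1 fell (19.9% and 19.5%). None of the catalytic subunits was called with all libraries. In the fit leaving out untreated replicate 4, PSMB6 and PSMB7 passed beside ATRA, both lower (adjusted p = 0.0149 and 0.0249). PSMB5 had 1080, 1098 and 1207 normalized counts with ATRA and 949, 1027 and 1030 with the inhibitors (-0.17, 95% confidence interval -0.43 to 0.09, adjusted p = 0.272), and its change beside Am80 was -0.08 (-0.34 to 0.18). PSMB6 was at -0.22 beside ATRA (-0.46 to 0.02) and 0.09 beside Am80 (-0.15 to 0.32), and PSMB7 at -0.17 (-0.39 to 0.04) and -0.14 (-0.35 to 0.08). Among the noncatalytic beta subunits, PSMB2 rose. It had 1848, 1822 and 1890 normalized counts with ATRA and 2266, 2275 and 2454 with the inhibitors (0.33 ± 0.060, adjusted p = 0.000136), and beside Am80 the rise was 0.22 ± 0.060 (adjusted p = 0.00508). The groups did not overlap with either retinoid. Beside Am80, PSMB2 was not called under quantile normalization (0.107) or total reads (0.101).

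Alpha subunits moved in both directions. PSMA1 had 861, 801 and 913 normalized counts with ATRA and 1174, 1361 and 1273 with the inhibitors (0.56 ± 0.089, adjusted p = 3.28e-05). Beside Am80 it went from 1002, 1097 and 894 to 1203, 1281 and 1272 (0.33 ± 0.089, adjusted p = 0.00548), again without overlap. PSMA6 went the other way, from 624, 589 and 700 normalized counts with ATRA to 443, 475 and 440 (-0.49 ± 0.14, adjusted p = 0.00813). Beside Am80 PSMA6 went from 850, 640 and 754 to 674, 587 and 465, where the groups overlapped (-0.39 ± 0.14, adjusted p = 0.0387). PSMA3 rose beside ATRA (0.39, adjusted p = 0.00122) and PSMA5 fell (-0.26, adjusted p = 0.0333), and neither was called beside Am80 with all libraries. Without untreated replicate 4, PSMA3 was called higher and PSMA5 lower beside Am80 as well. PSMA2 had 35.7, 35.4 and 38.9 normalized counts with ATRA and 38.1, 53.2 and 45.5 with the inhibitors. With Am80 it had 17.6, 25.9 and 18.8 normalized counts, and 35.1, 31.6 and 37.3 with the inhibitors. With all libraries PSMA2 was not called, with wide intervals (0.30, -0.33 to 0.92 beside ATRA, and 0.73, 0.11 to 1.35 beside Am80). Without untreated replicate 4, it was called higher beside Am80. PSMA1, PSMA2 and PSMA6 are the 3 genes that share exons with another gene on the same strand over more than 50% of their transcript, and whether this bears on their changes was not tested. PSMA7, which had the highest mean per kb of exon in untreated cells, had 3708, 3656 and 3869 normalized counts with ATRA and 3635, 3734 and 3037 with the inhibitors. It was not called (-0.12 and -0.04).

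In the base, PSMD1, a scaffold that binds ubiquitin-like domains, rose with both (0.31 beside ATRA, adjusted p = 0.000729, and 0.26 beside Am80, adjusted p = 0.0043). Under quantile normalization PSMD1 was not called (0.133 and 0.099), nor beside Am80 under total reads (0.133). The other scaffold, PSMD2, was not called (-0.10 and 0.05), nor was the ubiquitin receptor PSMD4 (-0.21, adjusted p = 0.0566, and -0.08, adjusted p = 0.497). Among the 6 ATPases, PSMC6 was higher beside ATRA (0.31, adjusted p = 0.016) and PSMC4 beside Am80 (0.30, adjusted p = 0.00311). PSMC4 had 1548, 1416 and 1514 normalized counts with Am80 and 1936, 1902 and 1676 with the inhibitors, without overlap. PSMC5 had 2948, 2959 and 2962 normalized counts with ATRA and 2538, 2771 and 2559 with the inhibitors. It was at -0.17 beside ATRA (adjusted p = 0.054) and -0.02 beside Am80 (adjusted p = 0.835). The remaining 3 ATPases were called with neither. PSMC5 and PSMD4 were called lower beside ATRA once untreated replicate 4 was left out (adjusted p = 0.00955 and 0.0073).

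The activators differed from each other. PSME4, a large cap that opens the core without ATP, had 1670, 1590 and 1687 normalized counts with ATRA and 2138, 2373 and 2402 with the inhibitors (0.48 ± 0.081, adjusted p = 7.04e-05). With Am80 it had 1443, 1684 and 1553, and 1936, 2148 and 2044 with the inhibitors (0.39 ± 0.081, adjusted p = 0.000703). The groups did not overlap. PSME3, the nuclear activator, rose by 0.32 and 0.29 (adjusted p = 0.0003 and 0.000974). PSME1, part of the interferon-inducible activator, had 2236, 2175 and 2349 normalized counts with ATRA and 1764, 1849 and 1886 with the inhibitors (-0.30 ± 0.078, adjusted p = 0.00369). Beside Am80 its change was -0.15 (adjusted p = 0.143). Its partner PSME2 was at -0.15 and -0.18 and was not called, and neither was the inhibitor PSMF1 (-0.02 and 0.07). Without untreated replicate 4, PSME1 and PSME2 were called lower beside Am80.

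Promoters were read from RefSeq (GRCh38.p14), which held a window from 250 bases before to 50 after the start for 39 of the 45 genes. Shown are the 250 bases before the RefSeq start of PSMD11, PSMD12, PSME4 and PSMG4. PSMD11 rose most among the lid genes, PSMD12 and PSME4 rose and hold the letters of an antioxidant response element, and PSMG4 fell. These starts differ from the gene coordinates used elsewhere here. By those coordinates, the PSMG4 window lies inside the gene, as do almost all of the PSMD11 window and part of the PSMD12 window. The PSME4 window lies before its gene. Which start these cells use was not tested. PSMG3 had no entry and is named only. Sequences are 5′ to 3′ on the strand of the gene, and capitals mark the letters TGACNNNGC (antioxidant response element) or CCGGAAG (ETS site) on either strand.
PSMD11 (chr17:32444260-32444509, plus strand): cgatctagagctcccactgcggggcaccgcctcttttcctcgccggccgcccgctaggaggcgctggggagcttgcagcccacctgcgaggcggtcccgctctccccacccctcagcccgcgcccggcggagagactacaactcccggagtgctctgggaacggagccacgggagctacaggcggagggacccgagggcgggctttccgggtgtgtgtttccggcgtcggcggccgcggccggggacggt
PSMD12 (chr17:67366578-67366827, minus strand): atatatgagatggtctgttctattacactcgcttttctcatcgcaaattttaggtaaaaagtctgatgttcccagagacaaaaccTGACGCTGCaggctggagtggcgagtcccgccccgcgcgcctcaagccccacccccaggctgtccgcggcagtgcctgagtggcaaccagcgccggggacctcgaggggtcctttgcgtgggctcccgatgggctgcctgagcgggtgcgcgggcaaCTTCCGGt
PSME4 (chr2:53970994-53971243, minus strand): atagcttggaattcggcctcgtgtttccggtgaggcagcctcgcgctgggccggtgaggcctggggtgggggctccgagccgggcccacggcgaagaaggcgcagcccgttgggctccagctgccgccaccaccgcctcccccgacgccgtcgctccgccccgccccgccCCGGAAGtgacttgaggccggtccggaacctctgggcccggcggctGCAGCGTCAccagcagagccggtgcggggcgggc
PSMG4 (chr6:3258697-3258946, plus strand): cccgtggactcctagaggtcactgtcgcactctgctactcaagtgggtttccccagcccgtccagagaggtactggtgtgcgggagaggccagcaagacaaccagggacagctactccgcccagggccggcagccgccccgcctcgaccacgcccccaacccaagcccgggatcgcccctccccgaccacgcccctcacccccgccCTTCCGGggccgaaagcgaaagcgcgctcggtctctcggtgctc
TGACNNNGC starts at position -165 in PSMD12 and -34 in PSME4, and CCGGAAG at -8 in PSMD12, -80 in PSME4 and -44 in PSMG4, counted back from the first base before the start as -1. PSMD11 held neither. Searched over the whole window of 300 bases on both strands, TGACNNNGC was found in 12 of 39 proteasome promoters (30.8%), compared with 13.6% of 27305 promoters and 15.5% of the 10504 promoters of tested genes. CCGGAAG was found in 13 (33.3%), compared with 10.7% of all and 19.8% of tested genes. GAANNTTC, the core of a heat shock element, was found in 0 of 39, compared with 6.9% of all promoters and 4.6% of those of tested genes. CCAAT was found in 18 (46.2%), compared with 35.7% of all and 36.6% of tested genes. GGGCGG was found in 26 (66.7%), above the 44.6% of all promoters but below the 69.9% of tested genes. Matches of GGGCGG and CCGGAAG shared a base in PSME4 and PSMG4. Of the 9 genes higher with both retinoids, 3 held TGACNNNGC, namely PSMD1, PSMD12 and PSME4, compared with 5 of 16 promoters of genes called beside neither and 0 of 2 that fell. A match describes letters only and is no evidence of binding.

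Against untreated cells, the combinations gave the longest lists of calls. With ATRA and both inhibitors, 25 of 43 genes (58.1%) were called, 13 higher and 12 lower, while 60.2% of all tested genes were called (30.2% higher and 30.0% lower). With Am80 and both inhibitors, 18 of 43 (41.9%) were called, 15 higher and 3 lower, while 54.7% of all genes were called (28.0% higher and 26.6% lower). Without untreated replicate 4, the ATRA combination had 17 higher and 8 lower (29.8% and 29.2% of all tested genes). The Am80 combination had 24 higher and 3 lower (28.5% and 26.5%). The 13 and 15 higher calls all remained, as did 8 of the 12 lower calls with ATRA and all 3 with Am80. Scaling to total reads gave 5 higher and 20 lower, and 5 higher and 11 lower, and quantile normalization 5 higher and 19 lower, and 6 higher and 8 lower, with the median of all genes at -0.15 and -0.19 under the first. Under quantile normalization, the median was -0.15 and -0.078 for the proteasome genes, against -0.024 and -0.042 over all genes. The shares of all tested genes called under these scalings are not given here. PSME3 changed sign under quantile normalization with both combinations, and under total reads with Am80.

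The same genes stood at the ends of the order. PSMG3 was lowest, at -1.18 ± 0.14 with the ATRA combination (adjusted p = 3.81e-07) and -1.05 ± 0.14 with the Am80 combination (adjusted p = 1.76e-06). PSMG4 was at -1.12 ± 0.12 and -1.03 ± 0.12 (adjusted p = 1.19e-07 and 3.97e-07). In the fit without untreated replicate 4, PSMG3 was at -1.03 and -0.91, and PSMG4 at -1.03 and -0.93. PSMD11 was at 0.65 ± 0.060 and 0.62 ± 0.060 (adjusted p = 1.24e-08 and 2.49e-08), and PSMA1 at 0.49 and 0.47. When replicate 4 was left out, PSMD11 was at 0.63 and 0.60 and PSMA1 at 0.55 and 0.53. PSMG1 was lower with both (-0.33, adjusted p = 0.00261, and -0.44, adjusted p = 0.000212, or -0.25 and -0.36 without that library). With the ATRA combination the catalytic subunits were lower, PSMB5 at -0.48 (adjusted p = 0.00146), PSMB6 at -0.31 (adjusted p = 0.0178) and PSMB7 at -0.24 (adjusted p = 0.0387). Without untreated replicate 4, PSMB5 was at -0.36 and PSMB6 at -0.17, both still called, and PSMB7 was not. With the Am80 combination they were at -0.23, 0.03 and -0.14 and were not called. PSMC5 fell with the ATRA combination (-0.26, adjusted p = 0.00224) and was at -0.09 with the Am80 combination, or at -0.20 (adjusted p = 0.00365) and -0.02 without that library. PSMA2 was at 1.01 with the ATRA combination (adjusted p = 0.00383) and 0.66 without untreated replicate 4 (adjusted p = 0.00733). These comparisons share the untreated libraries. Over the 5 group means, the median range of a proteasome gene was 0.33 on the log2 scale, compared with 0.56 over all tested genes, with PSMG3 (1.18), PSMG4 (1.12) and PSMA2 (1.10) the widest. No call was made in any of the 9 comparisons for 11 genes, namely PSMA7, PSMB1, PSMB3, PSMB4, PSMC1, PSMD3, PSMD4, PSMD5, PSMD13, PSME2 and PSMF1. Of these, 6 were called without untreated replicate 4 in at least 1 comparison, namely PSMA7, PSMB1, PSMB4, PSMD3, PSMD4 and PSME2.

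Am80 and ATRA were compared directly at the same dose and time. The compounds differ in structure, ATRA being a natural retinoid with a polyene chain and Am80 a synthetic aromatic amide. Without inhibitors, 0 of 43 genes were called (limma), while 0.239% of all tested genes were called (0.184% higher and 0.0546% lower). At an unadjusted p under 0.05 there were 11, edgeR called 0 and DESeq2 called 1. The share of all tested genes at that unadjusted threshold is not given here, so the 11 are no result about proteasome genes. The differences leaned 1 way, with 38 of 43 genes higher with Am80 and a median of 0.09 on the log2 scale, compared with 0.01 and 51.3% higher over all genes. PSMC6 had the smallest adjusted p (0.0762), with 1527, 1353 and 1641 normalized counts with ATRA and 2180, 2054 and 1781 with Am80 (0.41 ± 0.10). The groups did not overlap. Without untreated replicate 4, which enters only the shared variance, PSMA4, PSMC6 and PSMD14 were called higher and PSMA2 lower (2.21% and 0.922% of all genes). For 41 of 43 genes the 95% confidence interval lay within a 1.5-fold difference.

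With both inhibitors, again 0 of 43 genes differed between Am80 and ATRA (limma), where 0% of all tested genes were called. At an unadjusted p under 0.05 there were 13, again without the share of all tested genes, and edgeR and DESeq2 called 0. The median difference was 0.12, 33 of 43 genes were higher with Am80, and the interval lay within 1.5-fold for 40 of 43. A fit of only these 6 libraries called 12 genes, all higher with Am80, while it called 9.43% of all tested genes higher and 4.06% lower. Without untreated replicate 4, PSMA7, PSMB6, PSMC3, PSMD4 and PSME1 were called higher with Am80, and 3.17% of all genes were higher and 1.24% lower. PSMB6 had 825, 883 and 798 normalized counts with the ATRA combination and 1086, 1054 and 1018 with the Am80 combination, without overlap (0.34 ± 0.11, adjusted p = 0.171). The difference between the retinoids in what the inhibitors added, tested as an interaction, called 0 of 43 genes, and 0% of all tested genes. At an unadjusted p under 0.05 there was 1, PSMD12 (-0.22, adjusted p = 0.307), and edgeR and DESeq2 called 0. For 40 of 43 genes its interval lay within 1.5-fold. The base composition of the genes moved with these contrasts. Spearman's rho between GC content and the difference of the combinations was 0.49 over 43 proteasome genes and 0.52 over 14293 genes, and for adding the inhibitors to ATRA it was -0.52 and -0.54. These are across genes of the same libraries. With the GC trend removed, the comparison of the combinations and the interaction again gave 0 calls among the proteasome genes. Over all genes, those with an unadjusted p under 0.05 in the interaction went from 2211 of 14643 to 824 of 14293.

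The other genes of the pathway, from a list of 37 chosen with earlier results of these data known, were all tested. On adding the inhibitors to ATRA, 20 rose and 5 fell (24.9% and 24.4% of all tested genes), and on adding them to Am80, 23 rose and 4 fell (19.9% and 19.5%). The median log2 fold changes were 0.22 and 0.31. With ATRA alone 4 rose and 7 fell (12.5% and 12.1% of all tested genes), and 5 and 5 without untreated replicate 4 (12.3% and 11.9%). With Am80 alone 4 rose and 3 fell (15.4% and 13.4%), and 6 and 3 without that library (17.5% and 15.3%). ZFAND2A, a stress-inducible partner of the regulatory particle, had 238, 239 and 268 normalized counts with ATRA and 604, 1144 and 673 with the inhibitors (1.64 ± 0.16, adjusted p = 1.42e-07). With Am80 it had 290, 256 and 313, and 1557, 1203 and 1172 with the inhibitors (2.18 ± 0.16, adjusted p = 2.87e-09). The groups were far apart, although the treated libraries spread widely. MAFG, a small MAF partner of NFE2L1 and NFE2L2, had 2972, 2997 and 2838 normalized counts with ATRA and 5372, 6188 and 5191 with the inhibitors (0.92 ± 0.082, adjusted p = 2.86e-08), and beside Am80 the change was 1.24 ± 0.082 (adjusted p = 4.83e-10).

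Of the 8 genes that regulate proteasome transcription, 6 were higher beside ATRA and 7 beside Am80, while 24.9% and 19.9% of all tested genes were higher. NFE2L1 itself rose by 0.22 (adjusted p = 0.01) and 0.44 (adjusted p = 2.23e-05), and its activators DDI2 (0.52 and 0.47) and NGLY1 (0.46 and 0.41) rose as well. NFE2L2, the related antioxidant regulator, rose by 1.09 and 1.04 (adjusted p = 3.21e-09 and 5.84e-09). Of the 10 genes for shuttling and unfolding, 6 and 7 were higher and 0 lower, while 24.4% and 19.5% of all tested genes were lower. ZFAND5, which activates the proteasome, rose by 0.85 and 0.66 (adjusted p = 1.77e-09 and 4.9e-08), and the shuttle UBQLN1 by 0.53 and 0.42. AKIRIN2, which carries proteasomes into the nucleus, rose by 0.43 and 0.46. POMP, the maturation factor of the core, rose by 0.36 beside ATRA (adjusted p = 0.00362) and was at 0.22 beside Am80 (adjusted p = 0.0711). The lid subunit SEM1, left out by the naming rule, fell by 0.44 beside ATRA (adjusted p = 0.00881) and was at -0.13 beside Am80. These genes were chosen from the list after their values were seen, except ZFAND2A and MAFG.

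**Figure D5:**
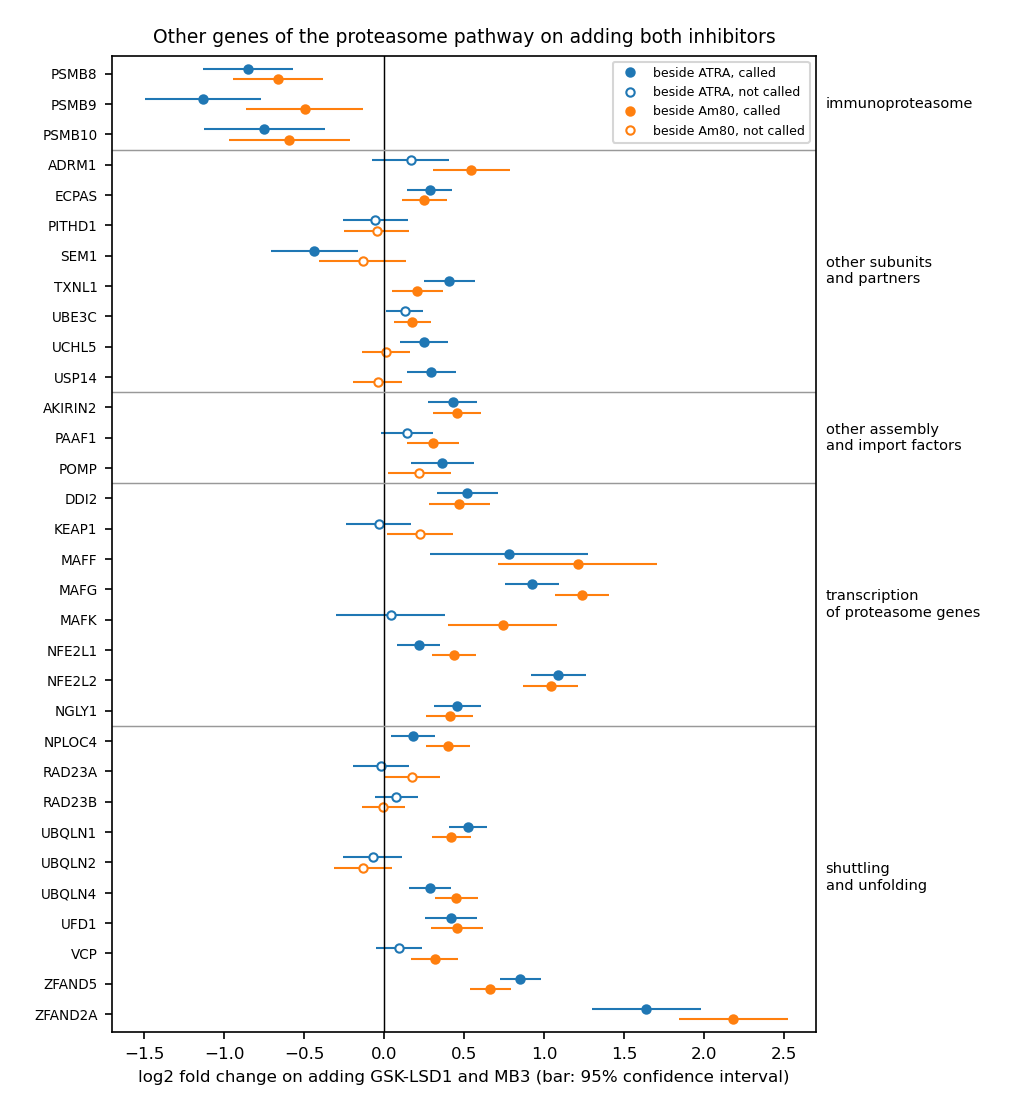
Log2 fold change of the other genes of the pathway, without the ubiquitin genes, on adding GSK-LSD1 and MB3 to ATRA (blue) or Am80 (orange), with 95% confidence intervals, where filled points have an adjusted p under 0.05 (limma). ZFAND2A lies farthest to the right (1.64 and 2.18), and the immunoproteasome subunits PSMB8, PSMB9 and PSMB10 lie left of 0 with both retinoids.

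The immunoproteasome subunits, which replace the catalytic subunits of the core in immune cells, all fell. PSMB8 had 560, 594 and 653 normalized counts with ATRA and 343, 323 and 334 with the inhibitors (-0.85 ± 0.14, adjusted p = 3.74e-05). Beside Am80 it went from 732, 590 and 660 to 503, 374 and 381 (-0.66 ± 0.14, adjusted p = 0.000596). PSMB9 fell by 1.13 and 0.50 (adjusted p = 2.59e-05 and 0.0283), and PSMB10 by 0.75 and 0.59 (adjusted p = 0.00195 and 0.013). PSMB8 takes the place of PSMB5. Within a library, their ratio, chosen after the values were seen, was -1.09 ± 0.067 (log2, SD, n = 4) in untreated cells, -0.91 ± 0.035 with ATRA and -0.94 ± 0.048 with Am80. With the inhibitors it was -1.58 ± 0.10 beside ATRA and -1.52 ± 0.19 beside Am80. The ratio of PSMB9 to PSMB6 went from -2.0 and -2.13 with the retinoids to -2.91 and -2.71 with the inhibitors. For both ratios, every library with inhibitors lay below every library without. The third pair, PSMB10 over PSMB7, had means of -0.90 with ATRA and -0.89 with Am80, and of -1.48 and -1.34 after the inhibitors were added. In untreated cells it was at -1.28, and its libraries with and without inhibitors overlapped.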

How the data were processed

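OCI-AML3 RNA-seq libraries were grouped by the treatment given in the labels. The authors counted reads per gene (the submitters' processing notes name FastQC, cutadapt, STAR, featureCounts and DESeq2, without versions) and deposited DESeq2-normalized counts, a signal obtained by dividing read numbers by 1 size factor per library. Genome build, annotation and strand setting were not given in the sources used here, and the labels and the study's methods name different RNA and library kits. All 62700 gene identifiers matched a symbol. Whole reads were recovered for 100% of values (relative tolerance 0.0001), 11963898 to 33789718 per library. Depth limits precision for low genes, and floors cover counting error only.

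Log2(normalized count + 1) of 14643 genes (mean of 10 or more) was fitted with limma 3.58.1 (R 4.3.3, mean-variance trend, 1 coefficient per group, all 16 libraries, no covariates), with Benjamini-Hochberg adjustment over these genes in each of 9 comparisons. edgeR 4.0.16 and DESeq2 1.42.0 on the recovered reads called 19 and 19 proteasome genes on adding the inhibitors to ATRA and 13 and 15 on adding them to Am80. Over all genes, edgeR called 3693 higher and 3608 lower beside ATRA. Other alternatives were pseudocounts of 0.5 and 5, a filter of 50, none at all, quantile normalization, total reads, a GC trend (5 degrees of freedom), only the groups compared, a replicate block, a 1.5-fold limit, an adjusted p under 0.01, and each library left out. The fits were checked on simulated data. Python 3.11.15 with pandas 2.3.3, numpy 2.4.6, scipy 1.17.1 and matplotlib 3.10.9 was used.

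Genes named with values by library were, in each role (base and lid subunits without ATPase activity together), those with the largest mean rise and fall over both inhibitor comparisons, any called between the retinoids, the 3 moved most by a retinoid alone, the highest and lowest per kb, the catalytic subunits, and the 3 largest rises and falls of the pathway list called in both. Other genes, such as PSMA1, PSMD12 and PSMC6, were named after their values were seen. The genes, roles and lists were chosen with earlier results of these data known. Some genes of the marker and pathway lists are not reported here.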

Additional observations from a re-analysis of the deposited data

Results flagged for a closer look

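In the untreated group of 4 libraries, 6 of 43 proteasome genes had 1 library far from the other 3 by Dixon's test. For a single gene, chance alone gives this in about 1 in 20 groups. The 43 genes share the same 4 libraries, and the share over all tested genes is not given here. Whether the count is particular to proteasome genes is therefore not known. In all 6 it was replicate 4, with the highest value. PSMD3 had 3191 normalized counts there against 2557 to 2601, PSMB1 3878 against 2753 to 2938, PSMD8 3055 against 2354 to 2431, PSMB7 2486 against 1679 to 1814, PSMD14 2222 against 1715 to 1793, and PSMG1 1182 against 931 to 948. These genes belong to different parts of the complex. The cause was not tested.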

How the results depend on the processing

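The counts of proteasome genes called in each comparison were recomputed under every alternative. The shares of all tested genes called in these fits are not given in this section. The counts therefore describe only how calls depend on the processing and are no result about proteasome genes. With ATRA alone, the count of 3 became 1 without a filter, 7 with quantile normalization, 5 with total reads, 7 with the GC trend removed, and 0 when just those groups were fitted, with a fold limit of 1.5 or at an adjusted p under 0.01. With Am80 alone, the count of 5 became 8 with total reads, 9 with the GC trend removed, 3 when just those groups were fitted and 0 with the fold limit. With the fold limit, the ATRA combination against untreated cells had 4 calls (25 without it), the Am80 combination 3 (18), adding the inhibitors to ATRA 3 (19) and adding them to Am80 2 (15). At an adjusted p under 0.01 the ATRA combination had 15. Between the retinoids, DESeq2 called 1 gene, and with inhibitors fitting just both groups called 12, where the reported counts are 0. The cause was not tested. Of the called genes, PSMC2, PSMC6 and PSME3 changed sign under a GC trend or another scaling, as described with the results.

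Leaving out 1 library at a time gave 0 to 5 calls with ATRA (0 without ATRA replicate 2, 5 without Am80 replicate 2) and 3 to 17 with Am80 (3 without Am80 replicate 2, 17 without untreated replicate 4). It gave 19 to 27 and 16 to 27 for the combinations against untreated cells, and 16 to 24 and 11 to 23 for adding the inhibitors to ATRA and Am80 (23 without untreated replicate 4). Between the retinoids it gave 0 to 4 without and 0 to 5 with inhibitors, the highest when untreated replicate 4 was left out, and 1 call between the retinoids when Am80 replicate 3 was.

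With a replicate block, the counts were 15 with Am80, 29 for the Am80 combination against untreated cells, 3 between the retinoids and 5 between the combinations. The shares of all tested genes in this fit are not given here either. Untreated replicate 4 is alone in its block, so this fit in effect leaves it out. Same-numbered libraries shared only a number: their deviations correlated between -0.11 and 0.19, and 5 of 15 libraries correlated best with their own number. Reads per library, 11963898 to 33789718, limit the low gene PSMA2 most.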
